A study of Mus musculus with 8 samples.

Results

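The genes described here make the enzymes that turn arachidonic acid into prostaglandins and leukotrienes. They are 10 genes chosen by name and located by their Ensembl IDs among the 47937 gene IDs that were counted in BMDCs: *Pla2g4a*, *Ptgs1*, *Ptgs2*, *Ptges*, *Hpgds*, *Tbxas1*, *Alox5*, *Alox5ap*, *Lta4h* and *Ltc4s*. BMDCs are the cells that grow from mouse bone marrow in GM-CSF, here over 8 to 9 days, and such cultures hold dendritic cells together with macrophages. RNA-seq libraries came from 4 groups of 2 libraries each: WT unstimulated, 3x*Grk*-/- unstimulated, WT with LPS and 3x*Grk*-/- with LPS, where LPS is a bacterial cell wall component given at 20 ng/ml for 24 h with GM-CSF still present. The 3x*Grk*-/- BMDCs were grown from the marrow of mice named 3x*Grk* ΔVav, in which Vav-iCre, active in blood-forming cells, removes the floxed *Grk2* and *Grk6* genes (*Grk2* fl/fl, *Grk6* fl/fl) on a *Grk3*-/- background. WT mice carried no Cre, and adult mice on a C57BL6/J background were used. GRKs phosphorylate activated G-protein coupled receptors and thereby stop their signalling. The study compared the genotypes in both stimulations, and the comparisons below ask how this group of genes differed between genotypes, how it responded to LPS in each genotype, and whether that response differed.

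Arachidonic acid is cut from membrane lipids by cytosolic phospholipase A2, the product of *Pla2g4a*. Cyclooxygenases (*Ptgs1*, made in most cells, and *Ptgs2*, made on demand) convert it into prostaglandin H2, and terminal synthases then make PGE2 (*Ptges*), PGD2 (*Hpgds*) or thromboxane (*Tbxas1*). Along the other branch, the lipoxygenase *Alox5* works with its activating protein *Alox5ap* to make leukotriene A4, from which *Lta4h* makes LTB4, a neutrophil attractant, and *Ltc4s* makes the cysteinyl leukotriene LTC4. Macrophages, mast cells and eosinophils are known sources of these lipids, and macrophages and dendritic cells are known to make PGE2 through *Ptgs2* and *Ptges* once stimulated with LPS. PGE2 and LTB4 act on G-protein coupled receptors.

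The start regions of 4 genes are shown because these genes mark the patterns in the data: *Ptgs2* and *Ptges* rose with LPS in both genotypes, *Ptgs1* fell with LPS in both genotypes, and *Alox5* was lower in 3x*Grk*-/- cells in both stimulations. Each sequence runs from 250 bases before to 25 bases after the start of the RefSeq gene, on the strand of the gene, in build GRCm38.p6, at chr1:150099781-150100055 (plus strand) for *Ptgs2*, chr2:30903273-30903547 (minus strand) for *Ptges*, chr2:36230176-36230450 (plus strand) for *Ptgs1* and chr6:116461154-116461428 (minus strand) for *Alox5*. Capitals mark letters that matched 1 of 8 motifs searched on both strands.
Ptgs2: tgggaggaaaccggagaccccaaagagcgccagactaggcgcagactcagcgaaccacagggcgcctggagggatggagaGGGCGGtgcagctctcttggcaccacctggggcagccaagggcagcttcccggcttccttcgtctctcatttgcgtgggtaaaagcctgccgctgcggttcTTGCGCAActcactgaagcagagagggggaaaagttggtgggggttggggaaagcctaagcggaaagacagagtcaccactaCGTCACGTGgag
Ptges: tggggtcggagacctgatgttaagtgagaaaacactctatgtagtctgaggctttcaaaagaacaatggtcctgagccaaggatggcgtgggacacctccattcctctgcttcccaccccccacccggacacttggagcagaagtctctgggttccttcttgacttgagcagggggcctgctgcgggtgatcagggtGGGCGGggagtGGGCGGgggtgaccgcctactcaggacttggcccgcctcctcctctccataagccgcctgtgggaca
Ptgs1: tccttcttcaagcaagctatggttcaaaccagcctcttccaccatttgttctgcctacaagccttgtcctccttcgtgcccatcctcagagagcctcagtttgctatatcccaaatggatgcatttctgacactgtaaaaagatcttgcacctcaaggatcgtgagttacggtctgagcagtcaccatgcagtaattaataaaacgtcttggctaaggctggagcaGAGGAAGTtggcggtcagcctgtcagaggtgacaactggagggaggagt
Alox5: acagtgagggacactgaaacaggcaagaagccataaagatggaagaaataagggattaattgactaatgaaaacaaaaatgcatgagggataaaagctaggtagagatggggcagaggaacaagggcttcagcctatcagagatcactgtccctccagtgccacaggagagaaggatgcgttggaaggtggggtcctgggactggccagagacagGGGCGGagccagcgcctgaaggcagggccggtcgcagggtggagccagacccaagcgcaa
The motifs and the share of 32851 mouse windows of the same length that held each were TGACG, the core of the cAMP response element (CRE), with 19.7%, TTGCNNAA, the C/EBP motif, with 10.2%, CACGTG, the E-box, with 6.68%, TGANTCA, the AP-1 motif, with 7.35%, the kappaB motif with 7.84%, GGGCGG, the GC box, with 34.4%, TATAAA, the TATA box, with 13% and GAGGAAGT, the PU.1 motif, with 2.77%. The *Ptgs2* window held a GC box at -170 to -165, a C/EBP match at -69 to -62, and a CRE core on the opposite strand at 14 to 18 past the start that overlapped an E-box at 17 to 22. The *Ptges* window held a pair of GC boxes, at -53 to -48 and -42 to -37. The *Ptgs1* window held a PU.1 match at -24 to -17, and the *Alox5* window held a GC box at -35 to -30. RefSeq windows were found for 9 of the 10 genes, and a match of letters is a description that shows no binding.

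Library totals ranged from 4713305 to 6933358 counted reads. In 3x*Grk*-/- cells the mean level of *Grk2* was 46.4% of WT without LPS and 27.1% with LPS, that of *Grk6* was 43.8% and 34.5%, and that of *Grk3* was 78.2% and 75.0%; whole-gene counts also take in exons that the deletions leave in place. The second 3x*Grk*-/- library with LPS stood apart in *Gm42418*, a gene that overlaps ribosomal RNA, which took 2.16% of its counts against 0.273% to 0.638% in the other 7 libraries; leaving that gene out changed no call below. Of the cell type markers, all 7 macrophage genes used (*Adgre1*, *Csf1r*, *Mertk*, *Cd68*, *Cd14*, *Fcgr1* and *C5ar1*) were above 0 in each library, and their summed level was 668 to 698 CPM (reads of a gene per 1000000 reads of the library) in unstimulated WT, 1422 to 1483 in unstimulated 3x*Grk*-/-, 383 to 386 in WT with LPS and 2719 to 2777 in 3x*Grk*-/- with LPS. The 10 dendritic cell genes summed to 25840 to 26080, 13270 to 13550, 16390 to 17960 and 14170 to 14430 CPM in the same order, and the 5 eosinophil genes to 903 to 958, 53.9 to 57.5, 894 to 965 and 36.1 to 42.3 CPM. *Cd74* alone held 44.85% to 47.68% of the dendritic cell sum. The mean levels of *Itgax* and *Flt3* went the other way, at 1.14 and 1.95 times WT without LPS and 5.08 and 2.55 times with LPS. *Ccr7* was at 1.19 times WT without LPS and 0.803 times with LPS, and the other 7 genes were lower in both stimulations. In bulk RNA, a change in the share of a cell type and a change of RNA per cell cannot be told apart, and the part of these marker shifts in the results was not tested.

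In unstimulated cells, 6 of the 10 genes were higher and 3 lower in 3x*Grk*-/- than in WT BMDCs (quasi-likelihood test of edgeR, adjusted p under 0.05), where 44.7% of all genes tested were called (22.1% higher and 22.7% lower). With LPS, 7 were higher and 2 lower, where 48.6% of all genes were called (24.7% higher and 24% lower). The median log2 fold change of the 10 genes was 0.45 without LPS and 1.35 with LPS, against -0.002 and -0.007 over all genes tested. All 10 genes passed the filter on low counts in every comparison. Between genotypes, *Ptgs2* without LPS and *Hpgds* with LPS passed it only through the 3x*Grk*-/- libraries, where they are high, so that their calls are no independent support and no p is given for them. Here and below, such a gene had fewer than 2 libraries of the other genotype past the filter, and *Hpgds* with LPS had 1. Apart from *Ptgs2* without LPS and *Hpgds* with LPS, 5 of the other 9 genes were higher and 3 lower without LPS, and 6 were higher and 2 lower with LPS, with medians of 0.42 and 1.085. With LPS the 4 prostanoid enzymes other than *Hpgds* were higher in 3x*Grk*-/- cells (median 2.32 on the log2 scale), whereas the 4 leukotriene enzymes had 1 gene higher, 2 lower and 1 not called, with a median of -0.14. The libraries of the genotypes did not overlap for 10 of the 10 genes without LPS, where 69.2% of all genes tested did not overlap, and for 9 of the 10 with LPS (all but *Ltc4s*), where the share was 72.6%.

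**Figure D1:**
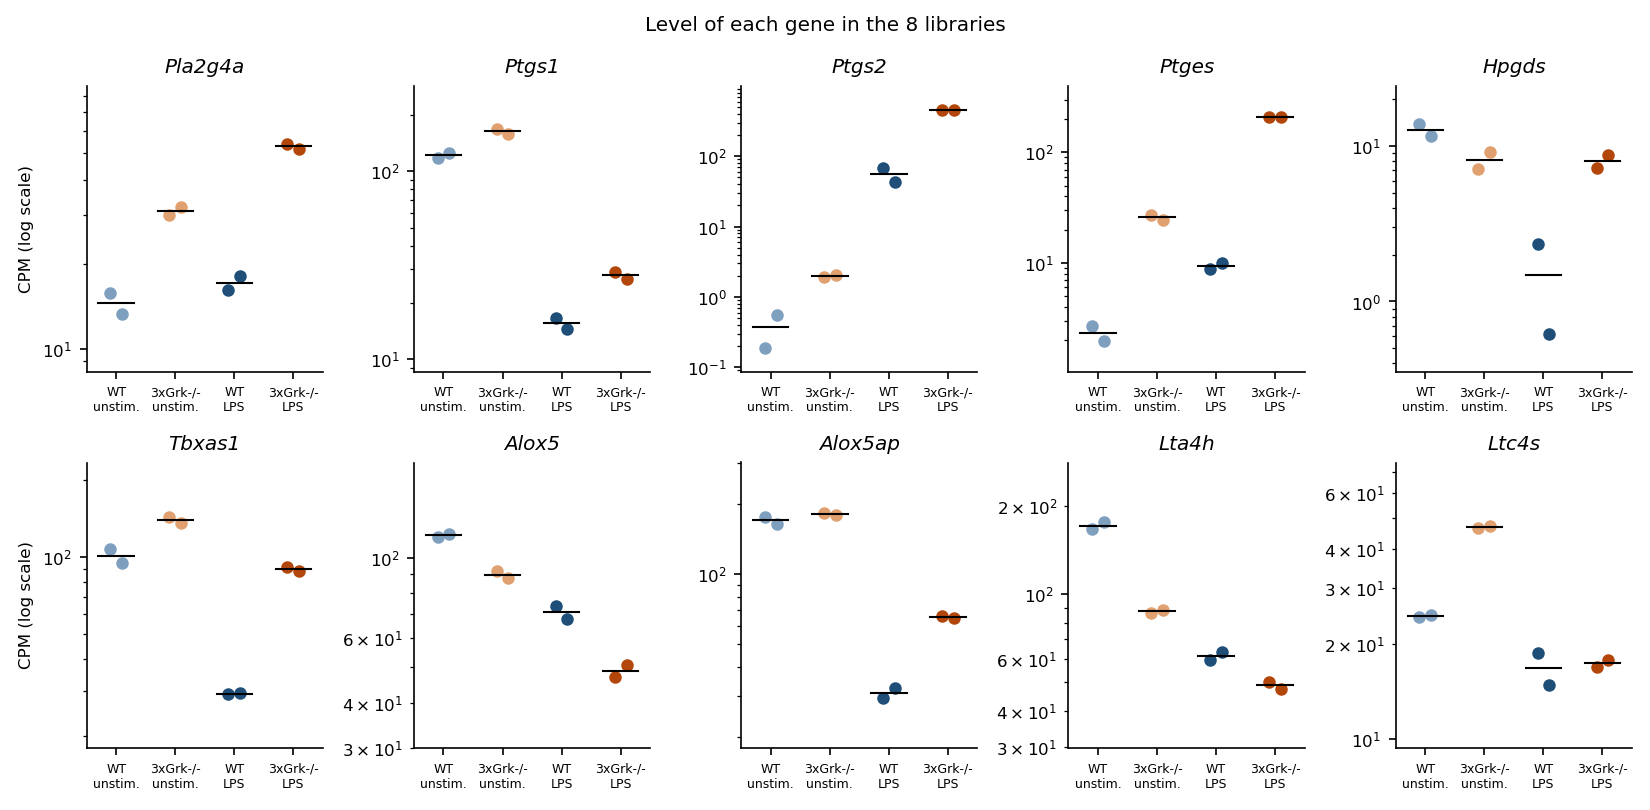
Level of each gene in the 8 libraries, in CPM on a log scale that differs between panels; points are single libraries and black lines are the means of 2 libraries. *Ptgs2* and *Ptges* were highest in 3x*Grk*-/- cells with LPS, whereas *Ptgs1*, *Tbxas1* and *Alox5ap* were lowest in WT cells with LPS.

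*Pla2g4a* releases the substrate for both branches. It lies at chr1:149829618-149961290 on the minus strand (GRCm38, as are all positions of genes below), and 138740 bases separate it from *Ptgs2*. Its level was 15.8 and 13.3 CPM in the unstimulated WT libraries, 30.01 and 32.1 in unstimulated 3x*Grk*-/-, 16.1 and 18.2 in WT with LPS, and 53.9 and 51.6 in 3x*Grk*-/- with LPS. The 3x*Grk*-/- libraries lay above the WT libraries in both stimulations, and no 2 groups overlapped. The log2 fold change of 3x*Grk*-/- over WT was 1.11 (SE 0.13) without LPS and 1.61 (SE 0.12) with LPS, and the Benjamini-Hochberg adjusted p of the edgeR test were 2.0e-15 and 2.6e-10. LPS raised it in 3x*Grk*-/- cells (log2 fold change 0.77, adjusted p = 3.3e-07 in the edgeR test), while the value of 0.26 in WT cells did not pass the test (adjusted p = 0.132). The genes with the most alike pattern over the 8 libraries, by root mean square difference of centred log2 CPM, were *Fcgr3* (0.128) and *Tcirg1* (0.145).

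*Ptgs2* encodes the inducible cyclooxygenase, at chr1:150100031-150108227. It had 1 and 4 counts in the unstimulated WT libraries and 13 and 12 in unstimulated 3x*Grk*-/-, or 0.191, 0.559, 1.94 and 2.08 CPM. With LPS its level was 69.0 and 42.8 CPM in the WT libraries, and the 3x*Grk*-/- libraries reached 451 and 448 CPM. All 4 groups were separate, in the order WT unstimulated, 3x*Grk*-/- unstimulated, WT with LPS, 3x*Grk*-/- with LPS. With LPS the level in 3x*Grk*-/- cells was 8.19 times that in WT (exact 95% counting interval 7.55 to 8.89; log2 fold change 3.02, SE 0.12, edgeR adjusted p = 8.3e-15). Without LPS the ratio was 4.97 with an interval of 1.87 to 16.6 from 25 against 5 counts; the log2 fold change was 2.26 (SE 0.62, a call that was lost in DESeq2), and the ratio was 3.59 without the first and 10.52 without the second unstimulated WT library. Counting intervals cover counting error only. LPS raised *Ptgs2* 136-fold in WT (interval 58.0 to 420) and 224-fold in 3x*Grk*-/- (152 to 346), with log2 fold changes of 7.03 and 7.79. The WT value rests on 5 unstimulated counts and was 98.1-fold without the first and 288-fold without the second unstimulated WT library. The closest patterns were those of *Saa3* (0.866) and *Timp1* (0.962), values that are larger, and so less alike, than those of the other 9 genes.

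*Ptgs1*, the constitutive cyclooxygenase at chr2:36230426-36252272, moved the opposite way with LPS. Its level was 118 and 124 CPM in unstimulated WT, 167 and 158 in unstimulated 3x*Grk*-/-, 16.5 and 14.5 in WT with LPS, and 29.2 and 26.5 in 3x*Grk*-/- with LPS. The groups did not overlap, and both LPS groups lay below both unstimulated groups. In WT cells it fell by 2.97 with LPS on the log2 scale (SE 0.10, edgeR adjusted p = 1.8e-20), and in 3x*Grk*-/- cells it fell by 2.55 (SE 0.08, edgeR adjusted p = 2.0e-20). Between genotypes, *Ptgs1* was higher in the 3x*Grk*-/- groups, by 0.42 (SE 0.06) without LPS and 0.85 (SE 0.14) with LPS on the log2 scale, with edgeR adjusted p of 3.3e-13 and 4.0e-05. Per length of all annotated exons of a gene ("per length" below), the ratio of *Ptgs2* to *Ptgs1* was 0.00137 and 0.00382 in the unstimulated WT libraries and 0.00983 and 0.0112 in unstimulated 3x*Grk*-/-, so that *Ptgs1* made up nearly all cyclooxygenase RNA. With LPS the ratio was 3.55 and 2.50 in the WT libraries, against 13.1 and 14.3 in those of 3x*Grk*-/-. *Egr2* (0.207) and *Gna15* (0.212) were closest to it in pattern.

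*Ptges* encodes the inducible PGE2 synthase that is known to work with *Ptgs2*, and it lies at chr2:30889471-30929863 on the minus strand. It had 2.67 and 1.96 CPM in unstimulated WT, 27.3 and 24.6 in unstimulated 3x*Grk*-/-, 8.87 and 10.04 in WT with LPS, and 211 and 207 in 3x*Grk*-/- with LPS. Its level in unstimulated 3x*Grk*-/- libraries thus lay above that in WT libraries with LPS. The log2 fold change between genotypes was 3.52 (SE 0.21, edgeR adjusted p = 1.5e-58) without LPS and 4.46 (SE 0.10, edgeR adjusted p = 1.0e-18) with LPS, the largest of the 10 genes in both stimulations. LPS raised it by 2.06 (SE 0.25) in WT and by 3.00 (SE 0.08) in 3x*Grk*-/- cells on the log2 scale. The most alike patterns were those of the chemokine gene *Ccl2* (0.483) and of *Inhba* (0.525), which encodes a subunit of activin A.

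*Hpgds*, the haematopoietic PGD2 synthase at chr6:65117293-65144908 on the minus strand, was the least abundant prostanoid enzyme in the LPS groups. It had 13.9 and 11.6 CPM in unstimulated WT, 7.17 and 9.19 in unstimulated 3x*Grk*-/-, 2.35 and 0.618 in WT with LPS (13 and 4 counts), and 7.26 and 8.74 in 3x*Grk*-/- with LPS. The 3x*Grk*-/- groups overlapped, whereas in WT the LPS libraries lay below all others. It was lower in 3x*Grk*-/- cells without LPS and at a higher level in them with LPS. The log2 fold change was -0.64 (SE 0.19, edgeR adjusted p = 0.0023) without LPS, a call that was lost in DESeq2 (adjusted p = 0.136) and without the first unstimulated 3x*Grk*-/- library (-0.45, edgeR adjusted p = 0.118), and 2.48 (SE 0.38) with LPS, a ratio of 5.68 by counts (95% counting interval 3.36 to 10.2). The WT libraries with LPS differed, and the ratio was 13.02 without the first and 3.42 without the second of them. In WT cells it fell by 3.13 (SE 0.32) with LPS on the log2 scale, and the value in 3x*Grk*-/- cells was -0.01 (SE 0.24, edgeR adjusted p = 0.969). *Gas2l3* (0.407) and *Nceh1* (0.523) came closest to its pattern.

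*Tbxas1*, thromboxane synthase at chr6:38875404-39084585, had 107 and 94.6 CPM in unstimulated WT, 144 and 136 in unstimulated 3x*Grk*-/-, 29.2 and 29.5 in WT with LPS, and 91.8 and 87.9 in 3x*Grk*-/- with LPS. The groups did not overlap, although those of unstimulated WT and of 3x*Grk*-/- with LPS came close. Its log2 fold change between genotypes was 0.48 (SE 0.06) without LPS and 1.61 (SE 0.10) with LPS, with edgeR adjusted p of 8.1e-15 and 1.5e-11. LPS lowered it in both genotypes: it fell by 1.77 (SE 0.09) in WT and by 0.64 (SE 0.07) in 3x*Grk*-/- cells on the log2 scale. Per length, *Tbxas1* exceeded *Ptges* 17.4- and 20.9-fold in the unstimulated WT libraries, 2.28- and 2.38-fold in unstimulated 3x*Grk*-/-, and 1.42- and 1.27-fold in WT with LPS. In 3x*Grk*-/- cells with LPS the ratio was 0.188 and 0.183, so that *Ptges* was the more abundant of the pair. Closest in pattern were *Pilra* (0.106) and *Uap1l1* (0.121).

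**Figure D2:**
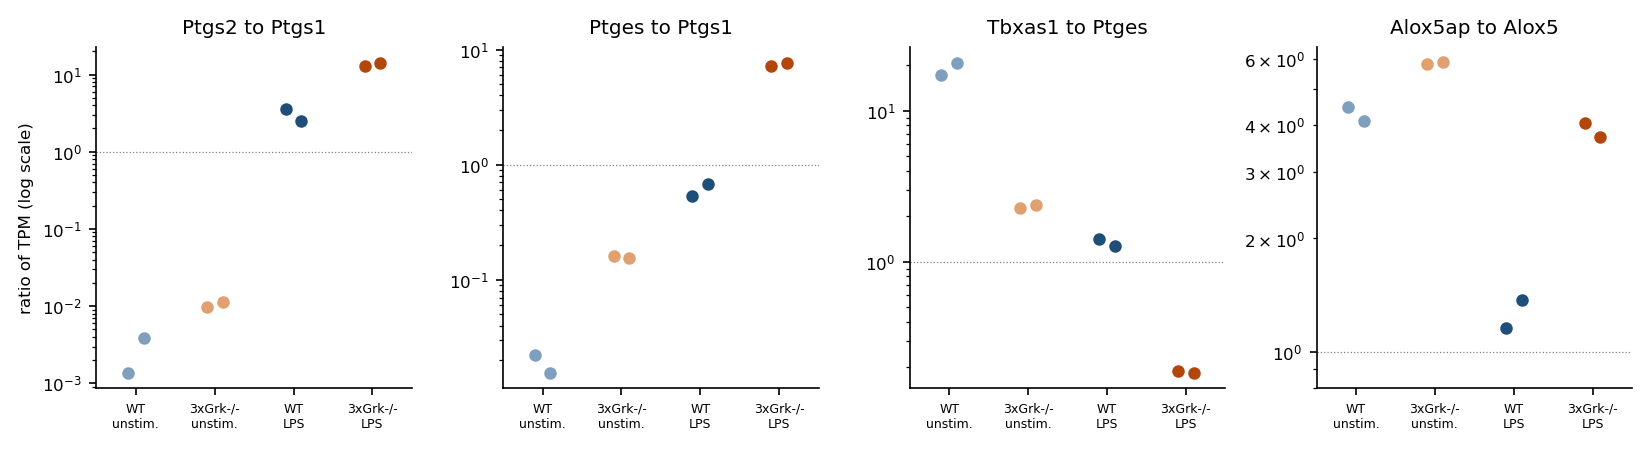
Ratio of levels per length of annotated exons (TPM, the share of a gene per 1000000 after division by that length) of 4 gene pairs in each of the 8 libraries, on log scales. The dotted line marks equal levels. *Ptgs2* exceeded *Ptgs1* in all 4 LPS libraries and in none without LPS, and *Ptges* exceeded *Ptgs1* and *Tbxas1* in 3x*Grk*-/- cells with LPS alone.

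On the leukotriene branch, *Alox5* at chr6:116410077-116461178 on the minus strand, the enzyme that oxygenates arachidonic acid, was lower in 3x*Grk*-/- cells. It had 114 and 116 CPM in unstimulated WT, 91.7 and 87.9 in unstimulated 3x*Grk*-/-, 73.5 and 68.0 in WT with LPS, and 47.0 and 50.7 in 3x*Grk*-/- with LPS. These groups were separate and their order followed both LPS and genotype. The log2 fold change between genotypes was -0.36 (SE 0.06, edgeR adjusted p = 9.7e-08) without LPS and -0.53 (SE 0.10, edgeR adjusted p = 0.00011) with LPS, and LPS lowered it in both genotypes, at -0.71 in WT cells against -0.88 in 3x*Grk*-/- cells on the log2 scale. *Rps3a1* and *Insr* had the closest patterns (0.069 each).

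*Alox5ap*, at chr5:149264767-149288153, presents arachidonic acid to *Alox5*. It had 177 and 165 CPM in unstimulated WT and 184 and 179 in unstimulated 3x*Grk*-/-, a log2 fold change of 0.09 (SE 0.05) that did not pass the test (edgeR adjusted p = 0.135). With LPS it had 29.3 and 32.3 CPM in WT, against 66.1 and 65.1 in 3x*Grk*-/-, a log2 fold change of 1.08 (SE 0.10, edgeR adjusted p = 1.5e-08). LPS lowered it in both genotypes, by log2 fold changes of -2.47 (SE 0.08) in WT cells against -1.47 (SE 0.07) in 3x*Grk*-/- cells. Per length it was the most abundant of the 10 genes in 3 groups, with a mean of 415 ± 20.1 TPM (SD, n = 2) in unstimulated WT, 425 ± 11.7 in unstimulated 3x*Grk*-/- and 66.0 ± 2.15 in WT with LPS. In 3x*Grk*-/- with LPS, its 126 ± 11.2 TPM stood behind the 267 ± 22.2 TPM of *Ptgs2* and the 145 ± 13.0 TPM of *Ptges*. The ratio of *Alox5ap* to *Alox5* per length was 4.48 and 4.11 in unstimulated WT, 5.80 and 5.90 in unstimulated 3x*Grk*-/-, 1.15 and 1.37 in WT with LPS, and 4.06 and 3.71 in 3x*Grk*-/- with LPS. Its most alike patterns were those of *Dpep2* (0.125), a dipeptidase gene of leukotriene breakdown, and *Nfam1* (0.148).

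*Lta4h*, which makes LTB4, lies at chr10:93453411-93484875. It had 167 and 176 CPM in unstimulated WT, 86.5 and 88.4 in unstimulated 3x*Grk*-/-, 59.4 and 63.6 in WT with LPS, and 49.9 and 47.6 in 3x*Grk*-/- with LPS, with no overlap of groups. It fell by 0.98 on the log2 scale between WT and 3x*Grk*-/- cells without LPS (SE 0.06, edgeR adjusted p = 9.3e-60), to 50.9% of the WT mean. With LPS the value was -0.34 (SE 0.10, edgeR adjusted p = 0.0064), and this call was lost in DESeq2 (adjusted p = 0.0799) and without the second 3x*Grk*-/- library with LPS (-0.29, edgeR adjusted p = 0.111). LPS lowered it in both genotypes (log2 fold change -1.48 in WT cells, -0.84 in those of 3x*Grk*-/-). The most alike patterns were those of *H2-DMb2* (0.076), an MHC class II chaperone gene, and *Unc119b* (0.089).

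*Ltc4s*, which makes LTC4, lies at chr11:50236461-50238616 on the minus strand. It had 24.4 and 24.6 CPM in unstimulated WT and 46.7 and 47.3 in unstimulated 3x*Grk*-/-, a log2 fold change of 0.94 (SE 0.11, edgeR adjusted p = 4.7e-17). With LPS it had 18.7 and 14.8 CPM in WT, against 16.9 and 17.8 in 3x*Grk*-/-, so that the genotypes overlapped and the log2 fold change was 0.06 (SE 0.16, edgeR adjusted p = 0.776). LPS lowered it in WT (-0.56) and in 3x*Grk*-/- cells (-1.44). Per length, the ratio of *Ltc4s* to *Lta4h* was 0.878 and 0.841 in unstimulated WT, against 3.25 and 3.22 in unstimulated 3x*Grk*-/-. With LPS it was 1.89 and 1.40 in WT libraries, against 2.04 and 2.25 in 3x*Grk*-/- libraries. The antisense gene *Gm26542* overlaps exons of *Ltc4s* and had 83 counts over all 8 libraries, and the strand setting of the counting is not given in the sources used here. The most alike patterns were those of *Loxl3* (0.147) and *Myo1d* (0.174).

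**Figure D3:**
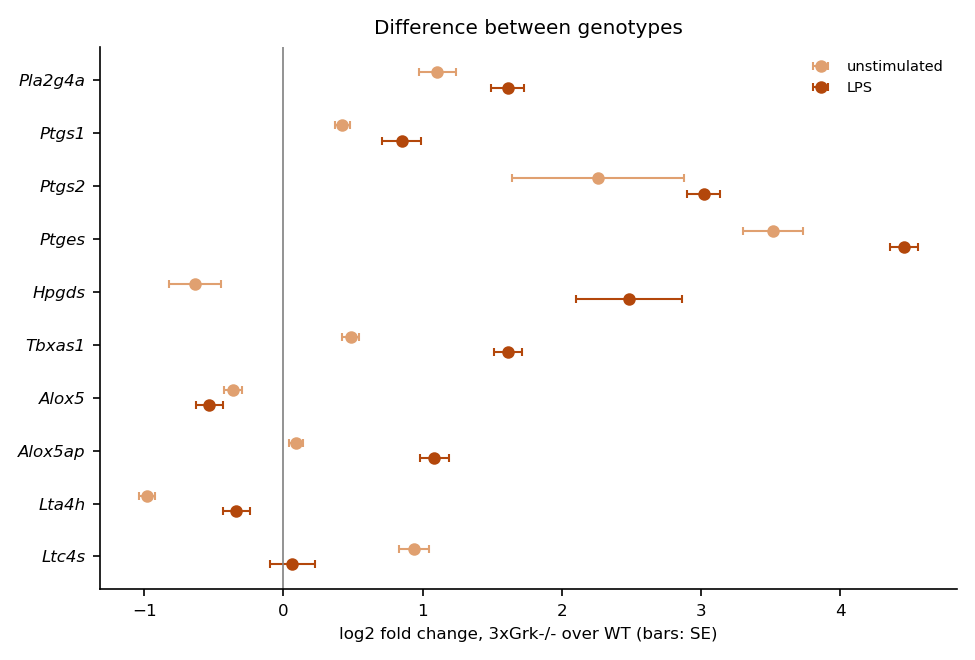
Log2 fold change of 3x*Grk*-/- over WT for each gene, unstimulated (light) and with LPS (dark), with its standard error from 2 libraries a group. With LPS the 5 prostanoid enzymes (*Ptgs1*, *Ptgs2*, *Ptges*, *Hpgds*, *Tbxas1*) and *Pla2g4a* lay between 0.85 and 4.46, and *Alox5* and *Lta4h* lay below 0 in both stimulations.

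In response to LPS, 2 of the 10 genes rose and 7 fell in WT cells, where 60.3% of all genes tested were called (29.5% higher and 30.8% lower). In 3x*Grk*-/- cells 3 rose and 6 fell, where 55.4% were called (28.0% higher and 27.4% lower). The libraries with and without LPS did not overlap for 10 of the 10 genes in WT (78.3% of all genes) and for 9 of the 10 in 3x*Grk*-/- cells, all but *Hpgds* (77.6% of all genes). *Ptgs2* and *Ptges* rose in both genotypes, *Pla2g4a* was called in 3x*Grk*-/- cells, and all 4 leukotriene enzymes fell in both genotypes. The summed level of the leukotriene enzymes was 482.4 and 482.3 CPM in unstimulated WT and 181 and 179 with LPS, and 409 and 403 in unstimulated 3x*Grk*-/- and 179.8 and 181 with LPS. The summed level of the 5 prostanoid enzymes was 242 and 233 CPM in unstimulated WT and 126 and 97.5 with LPS, but 348 and 329.7 in unstimulated 3x*Grk*-/- and 789.8 and 778 with LPS. The sum of the prostanoid enzymes thus fell with LPS in WT libraries and rose in 3x*Grk*-/- libraries, and its groups did not overlap. *Ptgs2* alone held 57.1% to 57.5% of the sum in 3x*Grk*-/- cells with LPS, and of the 5 enzymes 2 rose and 2 fell with LPS in these cells. Without *Ptgs2* the sum in 3x*Grk*-/- libraries with LPS was 339.0 and 330.3 CPM. That lay near the 348 and 329.7 CPM of the unstimulated 3x*Grk*-/- libraries, of which *Ptgs2* held 1.94 and 2.08 CPM. The rise of the sum thus rested on *Ptgs2*.

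**Figure D4:**
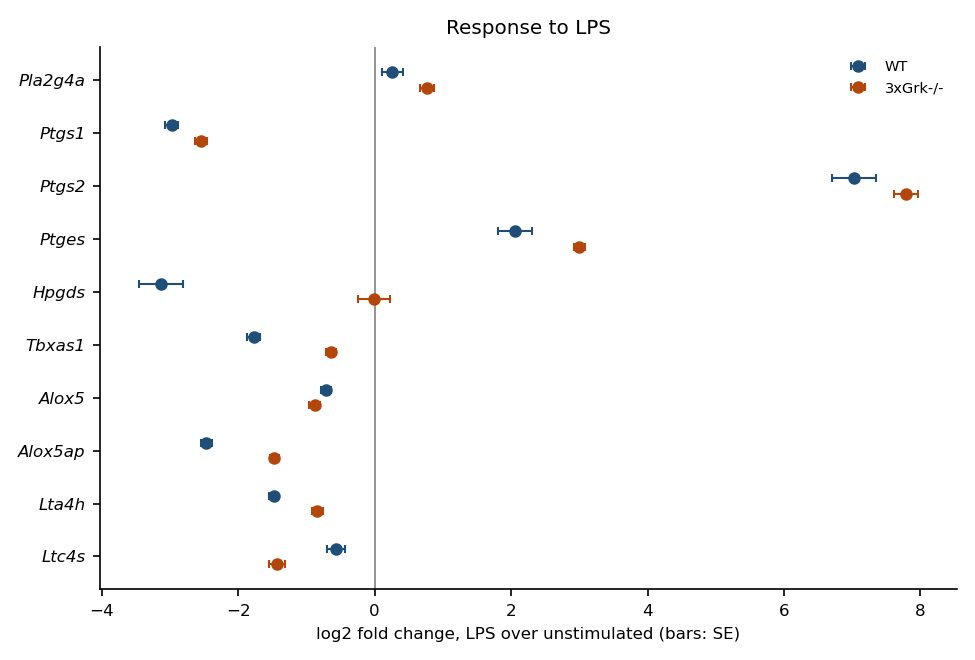
Log2 fold change of LPS over unstimulated for each gene in WT and 3x*Grk*-/- cells, with its standard error. *Ptgs2* and *Ptges* lay above 0 in both genotypes; *Hpgds* was at -3.13 in WT cells, against -0.01 in 3x*Grk*-/- cells.

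The difference between the responses was tested with the interaction term of a fit of all 8 libraries. It was positive for 7 of the 10 genes and negative for 1, where 32.5% of all genes were called (16.5% positive and 16.0% negative). It was 3.12 (SE 0.42) for *Hpgds*, 1.13 (SE 0.12) for *Tbxas1*, 0.99 for *Alox5ap*, 0.94 (SE 0.31) for *Ptges*, 0.64 for *Lta4h*, 0.51 (SE 0.18) for *Pla2g4a* and 0.43 (SE 0.14) for *Ptgs1* on the log2 scale. For *Ltc4s* it was -0.87. For *Hpgds*, *Tbxas1*, *Alox5ap*, *Lta4h* and *Ltc4s* the edgeR adjusted p lay between 7.9e-09 and 0.00039, and for *Ptges*, *Ptgs1* and *Pla2g4a* between 0.021 and 0.033. The calls of *Pla2g4a* and *Ptgs1* were lost in DESeq2 (adjusted p = 0.1757 and 0.1054). That of *Ptges* was lost without the first unstimulated WT library (0.76, edgeR adjusted p = 0.222). For *Ptgs2* the term was 0.77 with an SE of 0.94 (edgeR adjusted p = 0.619), and for *Alox5* it was -0.17 (edgeR adjusted p = 0.258). The comparisons of genotypes and of stimulations share libraries.

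Of 54 other genes of the pathway, 31 were tested in unstimulated cells, of which 15 were higher and 6 lower in 3x*Grk*-/-, and 29 with LPS, of which 11 were higher and 6 lower, against the shares of all genes given above. In each stimulation 2 of those tested passed the filter on low counts through a single genotype (*Faah* in both, *Ptger3* without and *Alox15* with LPS), and without them 14 of 29 were higher and 5 lower without LPS, and 11 of 27 higher and 4 lower with LPS. The median log2 fold changes of these 29 and 27 genes were 0.175 and 0.229. Among the other phospholipases and genes of arachidonate handling, 4 of 9 tested were higher and 2 lower without LPS, and 3 higher and 2 lower with LPS, not counting *Faah*. *Pla2g7*, which inactivates platelet-activating factor, was higher by 1.79 without and 2.20 with LPS on the log2 scale, whereas the cytosolic phospholipase gene *Pla2g4f* was at -0.56 and -1.78 and the lysosomal phospholipase gene *Pla2g15* was at -1.48 with LPS. The *Pla2g4f* value without LPS had an edgeR adjusted p of 0.016 and was lost in DESeq2 (0.279), without the second unstimulated WT library (-0.46, edgeR adjusted p = 0.181) and without the first unstimulated 3x*Grk*-/- library (-0.4998, edgeR adjusted p = 0.1241).

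Of the genes named from these lists, *Alox15* had the largest difference in both stimulations; it encodes a lipoxygenase that oxygenates arachidonic and linoleic acid. It had 73.2 and 73.3 CPM in unstimulated WT and 6.12 and 7.28 in unstimulated 3x*Grk*-/-, and 42.7 and 49.1 in WT with LPS against 0.363 and 0.809 (2 and 5 counts) in 3x*Grk*-/- with LPS. Its log2 fold change was -3.46 (SE 0.13) without LPS and -6.22 (SE 0.26) with LPS, and by counts WT exceeded 3x*Grk*-/- 77.1-fold with LPS (95% counting interval 37.2 to 193), or 57.1-fold without the first and 127-fold without the second 3x*Grk*-/- library with LPS. With LPS it passed the filter on low counts through the WT libraries only. The eosinophil markers fell alongside it, 2 of 3 being lower without LPS and 3 of 3 with LPS, with medians of -4.27 and -4.24, once *Il5ra* and *Ccr3*, which passed the filter only through WT libraries, were left out, and their part in this difference was not tested. Of the 4 tested genes in the group of *Alox15* (other lipoxygenases and leukotriene enzymes), 3 were higher and 1 lower without LPS, and with LPS 1 of the 3 others was lower. Of the other prostanoid synthases, none of 3 tested was called without LPS by the edgeR test, none of the 3 had an unadjusted p under 0.05 or a call in DESeq2, and 1 was higher with LPS. For both lists, the shares of all genes called were 44.7% without LPS and 48.6% with LPS.

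Among genes of eicosanoid export and breakdown, 3 of 7 were higher and 2 lower without LPS, and 4 of 6 were higher with LPS, where 22.1% of all genes were higher and 22.7% lower without LPS and 24.7% higher and 24% lower with LPS. *Ptgr1*, a reductase that inactivates LTB4 and prostaglandins, was higher by 2.54 (SE 0.13) without and 2.60 (SE 0.15) with LPS, and *Cyp4f18*, an enzyme that hydroxylates LTB4, was at -0.96 without LPS. Among the prostanoid receptors, 3 of 4 were higher without LPS, not counting *Ptger3*, and 2 of 4 higher and 1 lower with LPS, where the prostacyclin receptor gene *Ptgir* was higher by 1.46 (SE 0.17). Of the leukotriene receptors, 1 of 2 tested was higher in each stimulation: *Ltb4r1*, which encodes the high-affinity LTB4 receptor, had a log2 fold change of 1.03 (SE 0.14) without LPS.

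**Figure D5:**
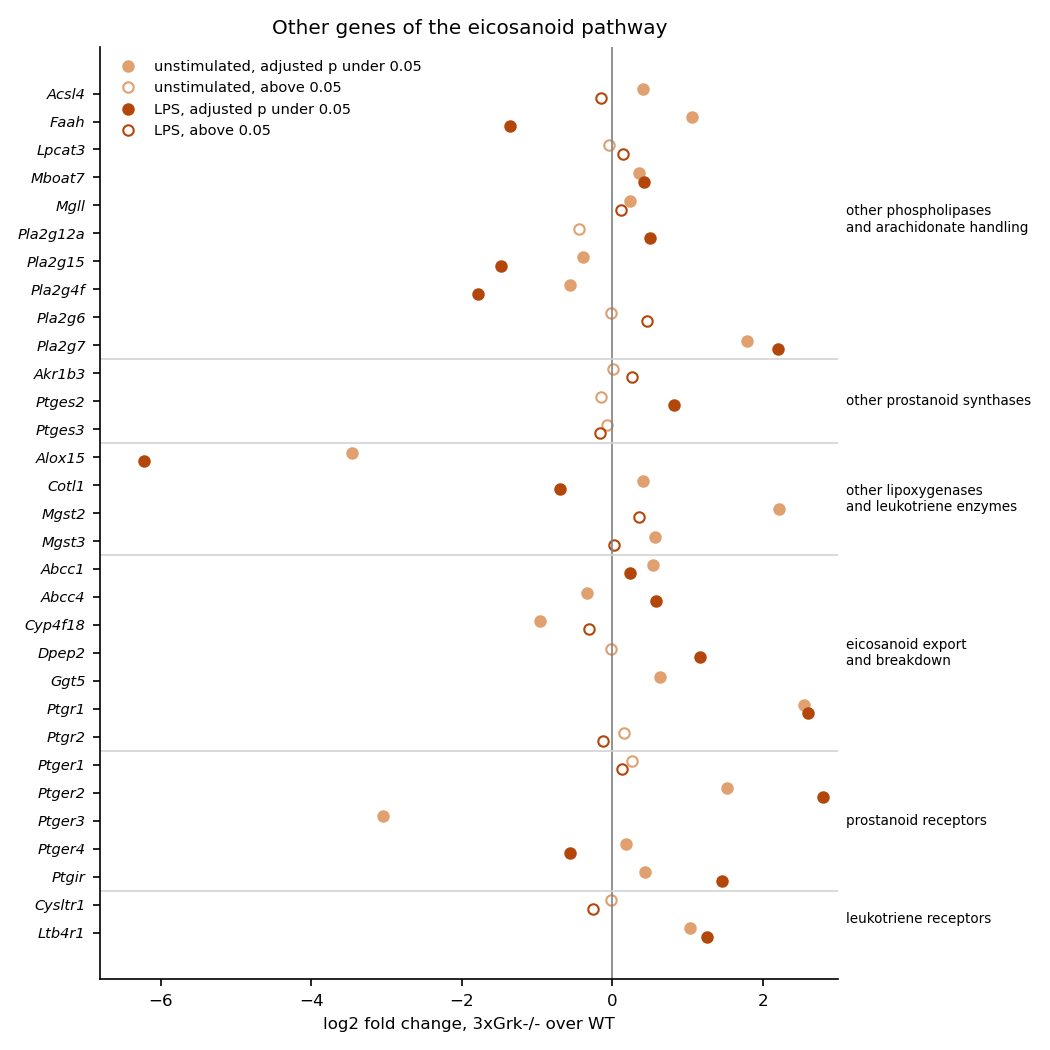
Log2 fold change of 3x*Grk*-/- over WT for the tested genes among 54 other genes of the pathway, grouped by role, without LPS (light) and with LPS (dark); filled points had an adjusted p under 0.05. *Alox15* lay at -3.46 and -6.22 and *Ptgr1* at 2.54 and 2.60.

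With LPS, 5 of 32 tested genes of these lists rose and 12 fell in WT cells, and 8 rose and 17 fell in 3x*Grk*-/- cells, where 60.3% and 55.4% of all genes were called. Of the 32, *Ggt5*, *Ptger1* and *Ptger3* had both libraries of a group past the filter on low counts only without LPS, and in no group did both libraries of *Ltb4r2* pass it. Without these 4 genes, 5 rose and 10 fell in WT cells, 8 rose and 15 fell in 3x*Grk*-/- cells, and 7 interaction terms were positive and 9 negative. In WT cells *Dpep2* fell by 2.73 and *Ptgir* by 2.35 on the log2 scale, while *Pla2g4f* rose by 2.02 and *Acsl4*, which loads arachidonic acid onto coenzyme A, by 0.78. The values of *Akr1b3*, an aldo-keto reductase with PGF synthase activity, and of *Alox15* were -0.86 and -0.67. In 3x*Grk*-/- cells *Alox15* fell by 3.43, *Dpep2* by 1.56, *Ptgir* by 1.32, *Cotl1*, whose product binds *Alox5*, by 1.28 and *Pla2g15* by 0.97, and *Pla2g12a*, a secreted phospholipase gene, rose by 1.17. The interaction term was positive for 8 and negative for 9 of the 32 genes (32.5% of all genes were called), with values of -2.76 for *Alox15*, -1.22 for *Pla2g4f*, -1.10 for both *Cotl1* and *Pla2g15*, 1.17 for *Dpep2* and 1.02 for *Ptgir*.

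Markers of other cells that are known to express these enzymes were also read. The 13 mast cell and basophil genes, of which 8 were tested between genotypes, had 3 higher and 3 lower without LPS and 1 higher and 3 lower with LPS, where 44.7% and 48.6% of all genes were called. Of those lower, *Ms4a2* in both stimulations and *Mcpt8* without LPS passed the filter on low counts only through WT libraries. The summed level of the 13 genes was 89.3 to 89.8 CPM in unstimulated WT, 125 to 128 in unstimulated 3x*Grk*-/-, 150.1 to 163 in WT with LPS and 342 to 352 in 3x*Grk*-/- with LPS. A single gene, *Hdc*, which makes histamine, held 73.5% to 74.1% of the sum in 3x*Grk*-/- with LPS, and without it the sum was 78.4 to 83.5, 109.4 to 109.7, 95.3 to 107 and 88.7 to 93.6 CPM in the same order. Of 7 megakaryocyte and platelet genes, *Pf4* and *Ppbp* were higher and *Itga2b* lower in 3x*Grk*-/- cells in both stimulations (*Ppbp* with LPS passed the filter only through 3x*Grk*-/- libraries), *Pf4* held 76.5% to 95.1% of the sum in 3x*Grk*-/- cells, the other 4 were too low to test, and the sum was 41.9 to 46.0, 326 to 337, 26.8 to 27.6 and 126.2 to 126.5 CPM in the same order. Of the 10 neutrophil genes, 1 was higher and 6 lower without LPS and 1 higher and 6 lower of 9 with LPS. *Mpo* in both stimulations and *Elane* with LPS passed the filter only through WT libraries, and without them 1 was higher and 5 lower in each stimulation. The sum of the 10 neutrophil genes was 739 to 768, 1175 to 1218, 288 to 330 and 500.5 to 524 CPM in the same order. *Mmp8*, the gene that was higher, held 61.75% to 72.30% of it in 3x*Grk*-/- cells. The 7 lymphocyte genes summed to at most 1.33 CPM in any library and none was tested. The 7 macrophage markers had 6 higher and 1 lower in 3x*Grk*-/- cells without LPS (median log2 fold change 1.247) and 7 higher with LPS (median 3.15), and the 10 dendritic cell markers had 3 higher and 7 lower without and 2 higher and 8 lower with LPS, against the same shares of all genes; the part of these shifts in the values of the prostaglandin and leukotriene genes was not tested.

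Each group held 2 libraries, and an exact two-sided permutation test of 2 against 2 cannot give a p below 0.333, so that the p-values rest on the spread estimated across all genes. The study's methods speak of RNA isolated in technical triplicates, whereas 2 libraries a group are analysed here, and the labels name no animal or culture, so that the p-values measure only the spread between these libraries, which may be technical.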

How the data were processed

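RNA of unstimulated and LPS-stimulated WT and 3x*Grk*-/- BMDCs was prepared by the authors with a stranded mRNA kit, aligned to mm10 with STAR and counted on genes with featureCounts within snakePipes. The authors deposited 1 table of raw counts per stimulation, in which each column is a library and no value was normalized. The strand setting and the annotation release are not given in the sources used here. Dose, time and mouse strains are from the study's methods, and groups and replicate numbers are from the sample labels.

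Of the 47937 gene IDs, 47310 were found in GENCODE M21 (GRCm38) once version numbers were dropped and 39192 with them, and the remaining IDs held 0.0468% of all counts. Each table was fitted on its own with edgeR 4.0.16 in R 4.3.3 (TMM, filterByExpr, glmQLFit and glmQLFTest) for the comparison of genotypes. The LPS responses and the interaction came from 1 fit of the 8 libraries. Adjusted p are Benjamini-Hochberg values over all genes tested, with a threshold of 0.05. The study used DESeq2, which served here as an alternative (version 1.42.0). CPM used TMM-scaled library sizes. TPM divided counts by the merged length of all annotated exons of the M21 gene. That length can exceed a single transcript (9094 bases for *Tbxas1* and 3931 for *Ptges*), so that ratios and ranks between genes depend on it. Fits were tested on simulated data before use. The alternatives were RLE and unscaled library sizes, other filters on low counts, a log2 fold change of at least 1, a preset coefficient of variation of 0.1 or 0.4, leaving out *Gm42418* or 1 library, other sets of libraries in the fit, and a replicate block. The replicate numbers did not pair the libraries.

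The genes, lists, markers and tests were chosen with earlier results of these data known. All 10 genes are named. Of the other pathway genes, up to 6 per comparison are named, those with the largest log2 fold change at an adjusted p under 0.05 and a mean log2 CPM of at least 3. Genes of like pattern are the 2 with the smallest root mean square difference among genes with a mean log2 CPM of at least 3. The alternatives for the other pathway genes, the sum without *Hdc* and the counts without genes that passed the filter through a single group were chosen after seeing the data. A gene of the macrophage list is not reported here, and the values of that list are over the remaining genes.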

Additional observations from a re-analysis of the deposited data

Results flagged for a closer look

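In 8 of the 10 genes the effect of genotype differed between stimulations by the interaction term (edgeR's quasi-likelihood test, adjusted p under 0.05), where 32.5% of all genes were called. The calls of *Pla2g4a* and *Ptgs1* were lost in DESeq2 and without some single libraries, and that of *Ptges* without the first unstimulated WT library. The log2 fold change of 3x*Grk*-/- over WT with LPS minus that without LPS was 0.51 for *Pla2g4a*, 0.43 for *Ptgs1*, 0.94 for *Ptges*, 3.12 for *Hpgds*, 1.13 for *Tbxas1*, 0.99 for *Alox5ap*, 0.64 for *Lta4h* and -0.87 for *Ltc4s*. Of the 32 tested genes of the other pathway lists, 8 had a positive and 9 a negative term. Those among the named genes were *Alox15* (-2.76), *Pla2g4f* (-1.22), *Dpep2* (1.17), *Cotl1* (-1.10), *Pla2g15* (-1.10), *Ptgir* (1.02), *Pla2g12a* (0.96), *Cyp4f18* (0.64), *Acsl4* (-0.55) and *Pla2g7* (0.41). *Hpgds* and *Ltc4s* had opposite patterns: the genotypes of *Hpgds* were farthest apart with LPS and those of *Ltc4s* without it.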

How the results depend on the processing

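Of 852 values of single genes recomputed under the alternatives, 779 kept their direction and their side of the threshold, 73 kept their direction but lost the call, and 0 reversed. Of 512 such values of the named genes of the other pathway lists, 481 kept both and 31 lost the call. With a log2 fold change of at least 1, 3 genes were higher and 0 lower in 3x*Grk*-/- without LPS, 0 were lower with LPS, 3 fell with LPS in 3x*Grk*-/- cells, and 2 interaction terms were positive and 0 negative. That rule also dropped *Ptgs1* between genotypes with LPS, *Alox5* and *Ltc4s* for LPS in WT cells and *Pla2g4a* for LPS in 3x*Grk*-/- cells. With a coefficient of variation of 0.4 for every gene, 1 was higher and 0 lower without LPS, 3 higher and 0 lower with LPS, 4 fell with LPS in WT and 1 in 3x*Grk*-/- cells, and 0 interaction terms were called in either direction. The rise of *Pla2g4a* with LPS in 3x*Grk*-/- cells was lost as well. With a coefficient of 0.1, 1 gene was lower with LPS, 4 interaction terms were positive, and *Alox5* was lost between genotypes without LPS. DESeq2 also left 1 lower with LPS. It lost *Ptgs2* and *Hpgds* between genotypes without LPS and the interaction terms of *Pla2g4a* and *Ptgs1*. With at least 10 counts in every library, *Ptgs2* was not tested without LPS, *Hpgds* was not tested between genotypes with LPS, neither was tested in the fit of all 8 libraries, and 1 gene rose with LPS in WT cells. Leaving out 1 library at a time gave 2 to 3 genes lower without LPS, 1 to 2 lower with LPS (1 without the second 3x*Grk*-/- library) and 5 to 7 positive interaction terms, and moved no other count. The *Pla2g4a* interaction was lost without the first library of any of the 4 groups (0.41 to 0.47, adjusted p from 0.07418 to 0.1544), and that of *Ptgs1* without the second unstimulated WT, WT with LPS or unstimulated 3x*Grk*-/- library or the first 3x*Grk*-/- library with LPS (0.33 to 0.40, adjusted p from 0.06231 to 0.1456). Calls lost under the rule of a log2 fold change of at least 1 were dropped because their values were smaller than 1 in size. The causes of the other lost calls were not tested.

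Over all genes, DESeq2 called 3086 genes between genotypes without LPS and 2643 interaction terms, against 5369 and 4070 in edgeR. A coefficient of 0.1 left 2905 genes without LPS and 2161 interaction terms. A coefficient of 0.4 left 448 and 782 genes between genotypes, 1110 and 850 for LPS in WT and 3x*Grk*-/- cells and 72 interaction terms, and a log2 fold change of at least 1 left 1444, 1984, 2700, 2373 and 1375. Library size alone moved the median log2 fold change of all genes to -0.086 and -0.094 between genotypes and to -0.23 and -0.226 for LPS, so that 35.8%, 40.9%, 31.1% and 30.2% of the calls were higher, against 49.3%, 50.7%, 49.0% and 50.5%; no call of the 10 genes changed. With a replicate block, 6 genes were higher and 3 lower without LPS and 7 higher and 2 lower with LPS, as without it, and 5292 and 5654 of all genes were called; the deviations of same-numbered libraries had correlations of -0.005 to 0.023. With 2 libraries a group and counts as low as 1 for *Ptgs2* and 4 for *Hpgds*, depth limits the values of these genes in WT cells.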
